A study of Mus musculus with 9 samples.

Results

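Genes of blood vessel endothelium and of the mural cells around it were examined in RNA from the membranous labyrinth, the soft tissue inside the bony cochlea, of mice at postnatal day 28. The set held 10 genes chosen by symbol, 6 endothelial (Pecam1, Cdh5, Kdr, Flt1, Cldn5, Emcn) and 4 mural (Pdgfrb, Rgs5, Cspg4, Kcnj8). All 10 had a row in the second of 2 deposited tables, which listed 25579 symbols, and 1 of them, Cspg4, also had a row in the first. The treated mice were homozygous for a humanized MPZL2 allele with a premature stop (hMPZL2Q74X/Q74X) and had received AAV-ie-ABE8eWQ-SpRY:sgRNA3, an adeno-associated virus coding for an adenine base editor and its guide RNA, injected by the round window route at postnatal day 2. The homozygous mice carried the same allele without the vector, and the WT mice carried wild-type Mpzl2. Each group had 3 libraries, given as biological replicates, and the sources used here do not say whether the untreated mice received any injection, which promoter drives the editor or whether a library is 1 animal or a pool.

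The cochlea is supplied by capillaries of the stria vascularis and spiral ligament, whose endothelium is sealed by tight junctions and forms the blood-labyrinth barrier. Endothelial cells are held together by cadherin and claudin contacts and respond to vascular endothelial growth factor (VEGF) through its receptors. Pericytes sit on the capillary wall, are recruited through platelet-derived growth factor (PDGF) from the endothelium, and in the stria help to keep the barrier tight.

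Values were TPM, which scale a transcript's abundance to its length and to the sum over the library, so that levels of different genes can be compared. TPM keeps no read depth, so the depth of the libraries is unknown. The libraries of the second table listed 16529 to 17281 symbols at 1 TPM or more. Mitochondrially encoded genes took 2.17% to 6.16% of TPM in treated libraries and 10.7% to 13.6% in homozygous libraries. Treated libraries 1 and 2 were almost the same: the robust spread (scaled median absolute deviation) of their log2 ratio for genes at 1 to 5 TPM was 0.0691, against 0.853 to 1.02 between homozygous libraries. They were averaged and counted as 1 sample, so the treated group had 2 samples. Mpzl2 was at 5.64, 5.62 and 16.3 TPM in treated libraries, against 17.4, 24.0 and 13.1 TPM in homozygous libraries. In the first table Mpzl2 was at 16.7, 23.2 and 12.5 TPM in homozygous libraries, against 33.6, 43.9 and 49.0 TPM in WT libraries. Genes of the cochlear duct were abundant throughout, with summed levels of 10 markers of 5362 to 6282 TPM in treated and 7701 to 10365 TPM in homozygous libraries. Most of that sum was Coch, at 4141, 4004 and 3735 TPM in treated libraries, against 7698, 7639 and 6110 TPM in homozygous libraries. Of the 10 markers 6 were above 0 and 4 below, 0 passed, and their median on the log2 scale was 0.67. Forebrain genes separated treated libraries 1 and 2 from the rest. Camk2a, a kinase of forebrain neurons, was at 745, 722 and 8.13 TPM in treated libraries, against 0.471, 0.503 and 0.554 TPM in homozygous libraries. Neurod6, a gene of cortical neurons, was at 6.25 and 6.004 TPM in treated libraries 1 and 2 and listed at 0 in treated library 3 and in the 3 homozygous libraries, while Camk2a in treated library 3 was still above every homozygous library. For the 10 genes each fold change is therefore also given for treated libraries 1 and 2 and for treated library 3 apart.

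The first question was whether vascular genes differed between the treated and the untreated homozygous cochlea. Emcn, Cldn5 and Cspg4 were higher and Kdr and Rgs5 lower in every treated library, and none of the 10 genes passed the test. Of 10 tested genes, 0 were higher and 0 were lower (limma on log2(TPM + 1), Benjamini-Hochberg adjusted p under 0.05), where 4.41% of all 17102 tested genes passed, 3.44% higher and 0.965% lower. Median-of-ratios scaling split the passing genes into 404 higher and 243 lower, against 589 and 165 as reported. An unadjusted p under 0.05 was reached by 3 of the 10, Emcn, Cldn5 and Rgs5, where 26.7% of all tested genes reached it. The samples of the groups did not overlap for 5 of the 10, 3 higher and 2 lower, where 45.0% of all tested genes had no overlap, 29.2% higher and 15.8% lower. These shares are near those of all genes. Under median-of-ratios scaling Emcn, Cspg4, Kdr and Rgs5 stayed apart in the same direction, Cldn5 overlapped, and Pecam1 and Flt1 were lower in both treated samples. The median log2 fold change of the 10 genes was -0.09, and that of all tested genes was 0.20. With treated library 3 alone 0 of the 10 passed. In bulk tissue fewer vascular cells and less RNA per vascular cell cannot be told apart.

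**Figure D1:**
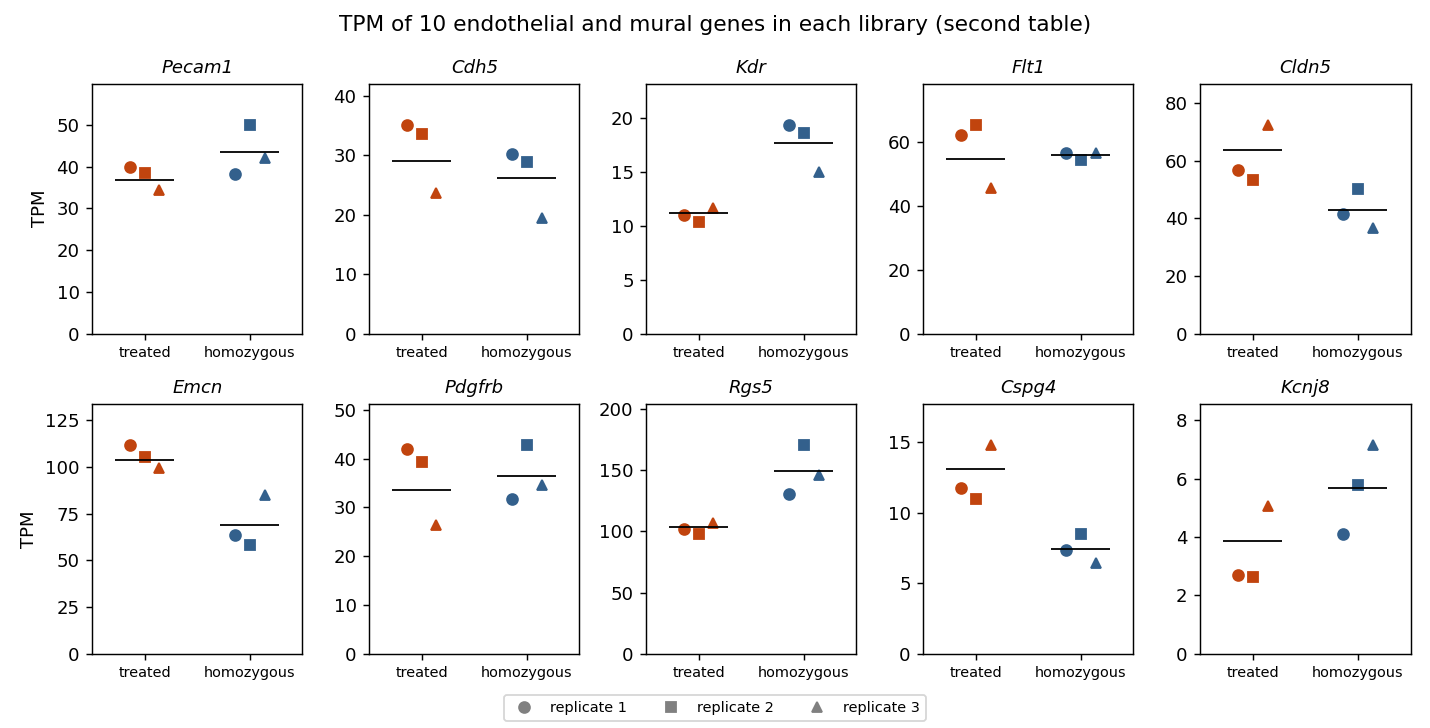
TPM (vertical axes, each from 0) of the 10 genes in the 3 treated and 3 homozygous libraries of the second table, one point per library with its replicate number as shape, and the group mean as a bar (treated libraries 1 and 2 averaged first). Emcn, Cldn5 and Cspg4 lay higher in every treated library than in every homozygous library, and Kdr and Rgs5 lower.

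Endothelial adhesion genes came first. Pecam1 encodes the adhesion molecule CD31 at contacts between endothelial cells, and platelets and leukocytes carry it too. Pecam1 was at 39.8, 38.5 and 34.4 TPM in treated libraries, against 38.3, 49.9 and 42.1 TPM in homozygous libraries. The groups overlapped, and the log2 fold change was -0.23 with a 95% interval of -0.74 to 0.28 (limma adjusted p = 0.531). It was -0.14 for treated libraries 1 and 2 and -0.32 for treated library 3. Cdh5 encodes VE-cadherin, the cadherin of endothelial adherens junctions. Cdh5 was at 35.1, 33.7 and 23.6 TPM in treated libraries, against 30.2, 28.8 and 19.4 TPM in homozygous libraries. Its groups overlapped as well, with a log2 fold change of 0.15 and an interval of -0.57 to 0.87 (limma adjusted p = 0.787). Treated libraries 1 and 2 alone had 0.41, and the sign turned to -0.045 under median-of-ratios scaling and to -0.11 with treated library 3 alone.

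Cldn5 encodes claudin-5, the main claudin of endothelial tight junctions in brain and inner ear barriers. Cldn5 was at 56.8, 53.5 and 72.3 TPM in treated libraries, against 41.7, 50.2 and 36.6 TPM in homozygous libraries. The lowest treated library lay just above the highest homozygous library on the deposited scale. After median-of-ratios scaling the averaged treated libraries 1 and 2 were at 47.1, below homozygous library 2 at 51.5, so the groups overlapped. The log2 fold change was 0.56 with an interval of 0.01 to 1.11, and the test was not passed (limma adjusted p = 0.181). It was 0.37 for treated libraries 1 and 2, 0.75 for treated library 3 and 0.37 under median-of-ratios scaling. Emcn encodes endomucin, a sialomucin of capillary and venous endothelium. Emcn was at 112, 106 and 99.3 TPM in treated libraries, against 63.5, 58.2 and 84.9 TPM in homozygous libraries. All treated libraries were above all homozygous libraries, with group means of 104 ± 6.54 TPM (SD, n = 2) and 68.9 ± 14.2 TPM (SD, n = 3). The log2 fold change was 0.60 with an interval of 0.09 to 1.12 (limma adjusted p = 0.142). It was 0.67 for treated libraries 1 and 2, 0.54 for treated library 3 and 0.41 under median-of-ratios scaling.

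Kdr and Flt1 encode receptors for VEGF. Kdr encodes VEGF receptor 2, which carries most of the growth signal in endothelium. Kdr was at 11.04, 10.3 and 11.7 TPM in treated libraries, against 19.3, 18.6 and 15.01 TPM in homozygous libraries. Every treated library was lower than every homozygous library, with a log2 fold change of -0.61 and an interval of -1.28 to 0.06, and the test was not passed (limma adjusted p = 0.22). The values for treated libraries 1 and 2 and for treated library 3 were -0.67 and -0.55. Flt1 encodes VEGF receptor 1, which binds VEGF tightly and signals weakly. Flt1 was at 62.2, 65.1 and 45.6 TPM in treated libraries, against 56.6, 54.4 and 56.5 TPM in homozygous libraries. Here the treated libraries lay on both sides of the homozygous ones, and the log2 fold change was -0.05 with an interval of -0.55 to 0.45 (limma adjusted p = 0.902). It was 0.19 for treated libraries 1 and 2 and -0.29 for treated library 3. TPM summed over transcripts does not separate the membrane form of Flt1 from its soluble form.

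Among the mural genes, Pdgfrb encodes the PDGF receptor beta that pericytes need for their recruitment, and fibroblasts express it too. Pdgfrb was at 42.0, 39.2 and 26.5 TPM in treated libraries, against 31.8, 42.7 and 34.6 TPM in homozygous libraries. The groups overlapped, with a log2 fold change of -0.13 and an interval of -0.77 to 0.51 (limma adjusted p = 0.784), and treated libraries 1 and 2 had 0.17 where treated library 3 had -0.43. Rgs5 encodes a regulator of G protein signalling that marks pericytes. Rgs5 was at 102, 97.8 and 107 TPM in treated libraries, against 131, 170 and 146 TPM in homozygous libraries. All treated libraries were below all homozygous libraries. The log2 fold change was -0.51 with an interval of -0.95 to -0.08 (limma adjusted p = 0.141), and it was -0.56 for treated libraries 1 and 2, -0.46 for treated library 3 and -0.71 under median-of-ratios scaling.

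Cspg4 encodes the proteoglycan NG2 of pericytes, which oligodendrocyte precursors and chondrocytes also carry. Cspg4 was at 11.7, 10.999 and 14.8 TPM in treated libraries, against 7.37, 8.47 and 6.44 TPM in homozygous libraries. Every treated library was higher than every homozygous library. The log2 fold change of 0.73, with an interval of -0.05 to 1.52, was the largest in absolute size of the 10, and it did not pass (limma adjusted p = 0.209). Treated libraries 1 and 2 had 0.56 and treated library 3 had 0.91. Kcnj8 encodes Kir6.1, the pore of the potassium channel that couples the metabolic state of mural cells to vessel tone. Kcnj8 was at 2.69, 2.62 and 5.06 TPM in treated libraries, against 4.11, 5.76 and 7.13 TPM in homozygous libraries. Treated library 3 fell among the homozygous libraries, and the log2 fold change was -0.48 with the widest interval of the 10, -1.50 to 0.54 (limma adjusted p = 0.512). It was -0.84 for treated libraries 1 and 2 and -0.11 for treated library 3. Abcc9, the regulatory subunit that pairs with Kir6.1, was chosen after its values were seen. It was at 24.5, 22.6 and 16.4 TPM in treated libraries, against 20.0, 32.5 and 29.1 TPM in homozygous libraries, groups that overlapped (limma adjusted p = 0.428).

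**Figure D2:**
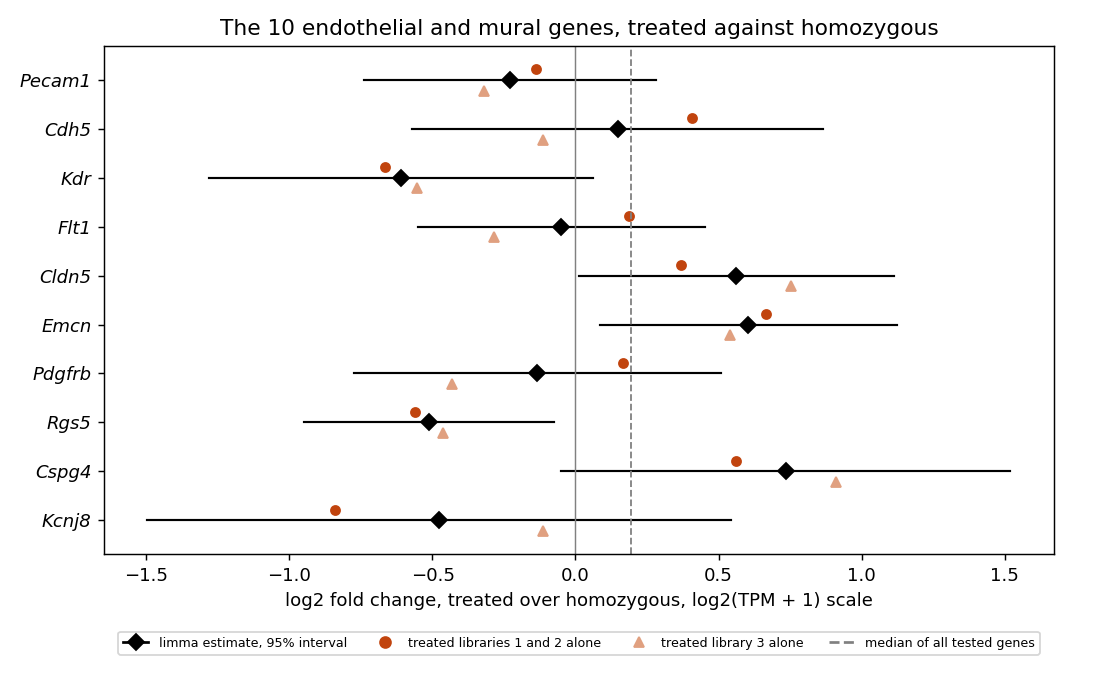
Log2 fold change on the log2(TPM + 1) scale, treated over homozygous, for the 10 genes. Diamonds with bars are limma estimates with 95% intervals, circles and triangles give treated libraries 1 and 2 alone and treated library 3 alone, and the dashed line is the median of all tested genes, 0.20. The intervals of Emcn, Cldn5 and Rgs5 leave out 0, and Cdh5, Flt1 and Pdgfrb have the circle and the triangle on different sides of 0.

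For the 5 genes whose groups did not overlap, the sequence from 250 bases before to 50 bases after the annotated start is shown. They were taken only for this lack of overlap, whose share was near that of all genes, and none passed the test. Capitals mark GGAA on either strand (TTCC on the strand shown), the core bound by ETS factors such as ERG, which act on many endothelial genes. RefSeq promoters on GRCm38.p6 were matched for 7 of the 10 genes, and the strand is that of the gene. The build of the expression values, GRCm39, is another one, so only the names link them. The windows are chr5:75978406-75978705 (minus strand) for Kdr, chr16:18776597-18776896 (plus) for Cldn5, chr3:137340828-137341127 (plus) for Emcn, chr1:169655251-169655550 (plus) for Rgs5 and chr9:56864854-56865153 (plus) for Cspg4.
Emcn: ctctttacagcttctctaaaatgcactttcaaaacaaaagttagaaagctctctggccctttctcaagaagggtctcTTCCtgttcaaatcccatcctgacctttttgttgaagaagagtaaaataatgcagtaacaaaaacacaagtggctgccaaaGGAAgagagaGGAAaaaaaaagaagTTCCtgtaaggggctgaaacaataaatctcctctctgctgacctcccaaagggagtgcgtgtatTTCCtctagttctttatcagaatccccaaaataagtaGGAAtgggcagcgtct
Cldn5: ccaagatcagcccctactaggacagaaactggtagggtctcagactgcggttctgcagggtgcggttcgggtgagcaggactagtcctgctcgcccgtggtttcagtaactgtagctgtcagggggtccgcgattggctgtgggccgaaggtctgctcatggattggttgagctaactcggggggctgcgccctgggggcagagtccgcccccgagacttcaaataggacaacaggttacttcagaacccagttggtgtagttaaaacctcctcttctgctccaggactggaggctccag
Kdr: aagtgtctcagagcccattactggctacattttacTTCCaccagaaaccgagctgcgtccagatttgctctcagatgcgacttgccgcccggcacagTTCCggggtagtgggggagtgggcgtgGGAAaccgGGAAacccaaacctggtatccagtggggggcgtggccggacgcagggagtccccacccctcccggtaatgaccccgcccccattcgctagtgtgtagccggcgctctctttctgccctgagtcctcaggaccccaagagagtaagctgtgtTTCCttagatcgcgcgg
Rgs5: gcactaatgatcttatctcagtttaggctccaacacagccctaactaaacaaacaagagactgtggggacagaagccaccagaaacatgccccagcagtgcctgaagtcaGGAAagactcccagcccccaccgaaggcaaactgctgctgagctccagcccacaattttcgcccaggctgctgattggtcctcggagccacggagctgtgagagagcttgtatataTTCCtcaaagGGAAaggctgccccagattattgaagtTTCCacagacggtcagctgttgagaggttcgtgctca
Cspg4: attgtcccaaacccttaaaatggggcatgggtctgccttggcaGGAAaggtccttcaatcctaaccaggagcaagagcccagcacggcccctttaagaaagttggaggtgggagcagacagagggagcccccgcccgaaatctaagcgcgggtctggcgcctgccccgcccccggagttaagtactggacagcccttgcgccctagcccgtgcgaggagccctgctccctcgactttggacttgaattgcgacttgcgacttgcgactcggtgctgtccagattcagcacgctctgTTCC
The Emcn window held 6 matches to GGAA, that of Kdr 5, that of Rgs5 4, that of Cspg4 2 and that of Cldn5 0. Of all 32851 promoter windows 96.0% held at least 1 match, so a match says little. The GC box GGGCGG, searched on both strands, was present 2 times in the windows of Kdr and Cspg4, once in that of Cldn5 and not in those of Emcn and Rgs5, against 35.7% of all windows with it. The gamma-activated site TTCNNNGAA was in 0 of these 5 windows and in 8.30% of all windows. No match says only that these letters are not in the window.

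Levels ordered the genes in much the same way in both groups. In treated samples Emcn and Rgs5 led with means of 104 TPM each and overlapping libraries, and Cldn5 (63.7 TPM) and Flt1 (54.6 TPM) followed, also overlapping. Pecam1, Pdgfrb and Cdh5, at 36.8, 33.6 and 29.0 TPM, overlapped from neighbour to neighbour, as did Cspg4 (13.1 TPM) and Kdr (11.2 TPM), and Kcnj8 was lowest at 3.86 TPM. In homozygous samples Rgs5 led at 149 TPM, with no overlap with Emcn at 68.9 TPM or of Emcn with Flt1 at 55.8 TPM. Pecam1, Cldn5 and Pdgfrb, at 43.4, 42.8 and 36.4 TPM, overlapped from neighbour to neighbour. Cdh5 (26.1 TPM) and Kdr (17.7 TPM) stood apart from their neighbours, and Cspg4 (7.43 TPM) overlapped with Kcnj8 (5.67 TPM). Rgs5 was above 93.8% of the tested genes in level in homozygous samples, and Kcnj8 above 28.2%.

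Ratios within a library do not depend on how libraries are scaled to each other. They were chosen after the values had been seen and are given as a description. The summed level of the 4 mural genes over that of the 6 endothelial genes was 0.502, 0.491 and 0.535 in treated libraries, against 0.697, 0.874 and 0.763 in homozygous libraries. The groups did not overlap, and Rgs5 made up most of the mural sum. The endothelial sum was 316, 307 and 287 TPM in treated libraries, against 250, 260 and 254 TPM in homozygous libraries. The mural sum was 159, 151 and 154 TPM in treated libraries, against 174, 227 and 194 TPM in homozygous libraries. Single genes of a class did not move together. Of the 6 endothelial genes Emcn and Cldn5 were higher in every treated library, Kdr was lower, and Pecam1, Cdh5 and Flt1 overlapped. Of the 4 mural genes Rgs5 was lower, Cspg4 was higher, and Pdgfrb and Kcnj8 overlapped. Emcn over Pecam1 was 2.80, 2.74 and 2.89 in treated libraries, against 1.66, 1.17 and 2.02 in homozygous libraries. Flt1 over Kdr was 5.63, 6.30 and 3.91 in treated libraries, against 2.92, 2.92 and 3.76 in homozygous libraries, so treated library 3 was only just above homozygous library 3. Rgs5 over Pdgfrb was 2.43, 2.49 and 4.05 in treated libraries, against 4.11, 3.99 and 4.23 in homozygous libraries, and here treated library 3 sat with the homozygous libraries.

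**Figure D3:**
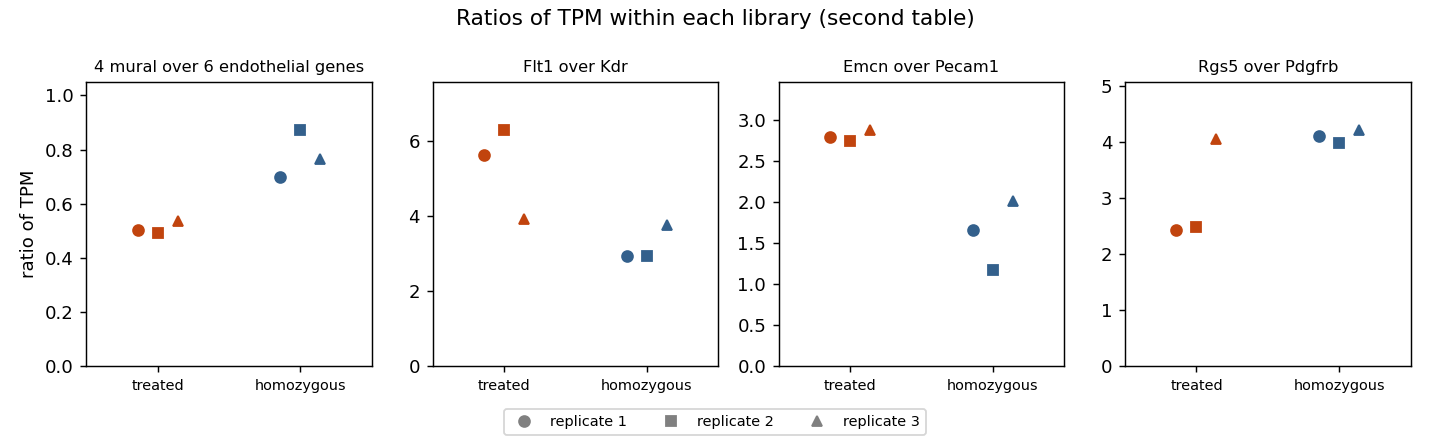
Ratios of TPM within each library of the second table (vertical axes, each from 0), one point per library with its replicate number as shape, for the sum of the 4 mural over the sum of the 6 endothelial genes and for 3 pairs of genes. The first ratio lies between 0.491 and 0.535 in treated libraries and between 0.697 and 0.874 in homozygous libraries, while Rgs5 over Pdgfrb in treated library 3, at 4.05, lies within the homozygous range.

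Lists of 88 further vascular genes in 6 groups had 83 tested members, of which 1 rose and 1 fell, 22 (26.5%) had an unadjusted p under 0.05 and 42 (50.6%) had no overlap between groups. The share with an unadjusted p under 0.05 was near that of all genes. The 42 were 20 higher (24.1%) and 22 lower (26.5%), where all tested genes had 29.2% higher and 15.8% lower. Over all tested genes 61.0% had a log2 fold change above 0, and over the 83 genes 47.0%. Of 26 other endothelial genes 0 passed and 3 had an unadjusted p under 0.05, with 11 above 0, 15 below and a median log2 fold change of -0.10. The 2 with the highest level were Adgrf5, an adhesion receptor of endothelium, at 71.5, 71.9 and 48.7 TPM in treated libraries, against 43.5, 54.7 and 49.9 TPM in homozygous libraries, and Ecscr, an endothelial surface protein gene. Ecscr was at 57.2, 56.5 and 43.4 TPM in treated libraries, against 52.8, 52.0 and 87.7 TPM in homozygous libraries. Both overlapped between groups.

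Of 12 other pericyte genes 0 passed and 3 had an unadjusted p under 0.05, with 6 above 0, 6 below and a median of -0.09. Art3 led in level, at 324, 401 and 222 TPM in treated libraries, against 261, 163 and 228 TPM in homozygous libraries. Mcam, the adhesion molecule CD146 of mural cells and endothelium, was at 46.5, 48.0 and 36.1 TPM, against 41.8, 37.1 and 37.2 TPM, and its log2 fold change of 0.09 turned to -0.10 under median-of-ratios scaling. Higd1b and Heyl, chosen after their values were seen, lay in opposite directions. Higd1b, a pericyte marker, was listed at 0 in treated libraries 1 and 2 and at 1.18 TPM in treated library 3, against 4.54, 6.40 and 3.36 TPM in homozygous libraries (limma adjusted p = 0.0741). Heyl, a target of Notch signalling in mural cells, was at 41.3, 39.9 and 46.2 TPM in treated libraries, against 12.4, 26.2 and 17.0 TPM in homozygous libraries (limma adjusted p = 0.0816). Cox4i2, the remaining gene of the list with an unadjusted p under 0.05, was lower in every treated library. It was at 0.437, 0.406 and 0.907 TPM, against 3.57, 3.89 and 1.90 TPM in homozygous libraries (limma adjusted p = 0.126).

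Acta2, which encodes smooth muscle actin, was the 1 of 7 vascular smooth muscle genes that fell. Acta2 was at 7.56, 7.28 and 9.19 TPM in treated libraries, against 26.0, 24.7 and 37.6 TPM in homozygous libraries. No library of one group reached the other, and the log2 fold change was -1.69 (limma adjusted p = 0.0372). The call was lost without homozygous replicate 1, 2 or 3 (limma adjusted p = 0.178, 0.0792 and 0.175). With treated library 3 alone, 1 sample whose spread is taken from the homozygous group, the log2 fold change was -1.55, against -1.69, and the call was lost (limma adjusted p = 0.0816). Myh11, the smooth muscle myosin gene, was chosen after its values were seen and had 3.11, 3.01 and 3.66 TPM in treated libraries, against 12.9, 10.3 and 12.9 TPM in homozygous libraries (limma adjusted p = 0.0532). Myh11 passed in 5 of 13 alternatives, among them median-of-ratios scaling (limma adjusted p = 0.0473). The median of the 7 was -0.53, with 3 genes above 0 and 4 below. Without overlap between groups, 3 were higher and 3 lower, where all tested genes had 29.2% higher and 15.8% lower. The 3 higher, Mylk, Des and Lmod1, named after their values were seen, did not pass (limma adjusted p = 0.0682, 0.104 and 0.343). Mylk was at 69.4, 70.1 and 66.7 TPM in treated libraries, against 29.3, 44.1 and 32.4 TPM in homozygous libraries. Of 6 skeletal muscle genes 3 were tested and 0 passed. Acta1 and Tnnt3 overlapped between groups at 9.39 TPM or less, and Ckm, Myh1 and Myh4 were listed at 0 in treated libraries 1 and 2. Pvalb, which neurons also express, made up most of the list's sum of 83.7 to 112 TPM in treated and 145 to 232 TPM in homozygous libraries. Their part in these values was not tested.

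Of 16 genes of barrier transport and junctions 0 passed and 5 had an unadjusted p under 0.05, with 6 above 0, 10 below and a median of -0.29. Slc3a2, the shared chain of amino acid transporters, was at 158, 158 and 170 TPM in treated libraries, against 222, 223 and 162 TPM in homozygous libraries. Tjp1, the tight junction scaffold ZO-1, was at 202, 188 and 114 TPM, against 221, 172 and 237 TPM. Both overlapped between groups. Without overlap between groups, 4 of the 16 were higher and 5 lower, where all tested genes had 29.2% higher and 15.8% lower. The 4 higher, named after their values were seen, were Car4, Ocln, Lsr and F11r. Their log2 fold changes were 0.89, 0.37, 0.96 and 1.02, and none passed. Of the 5 lower, Tfrc, Slc16a1 and Abcb1a, carriers of brain capillaries, were chosen after their values were seen. Tfrc, the transferrin receptor gene, was at 94.98, 93.5 and 113 TPM in treated libraries, against 204, 173 and 247 TPM in homozygous libraries (limma adjusted p = 0.0526). Slc16a1, a monocarboxylate transporter gene, was at 13.7, 12.5 and 11.9 TPM, against 35.3, 26.7 and 28.1 TPM (limma adjusted p = 0.0532). Abcb1a, the efflux pump P-glycoprotein, was at 32.8, 32.1 and 30.3 TPM, against 48.3, 51.5 and 42.6 TPM (limma adjusted p = 0.132). Tfrc and Slc16a1 stood close to the threshold and passed in 5 of 13 alternatives, among them median-of-ratios scaling (limma adjusted p = 0.0482 for Tfrc and 0.0438 for Slc16a1). Many cells other than endothelium express both.

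Ligands and receptors of vessel growth had 18 tested genes, of which 0 passed and 5 had an unadjusted p under 0.05, with 11 above 0, 7 below and a median of 0.23. Vegfa, the ligand of Kdr and Flt1, was at 178, 190 and 160 TPM in treated libraries, against 117, 141 and 115 TPM in homozygous libraries. Its libraries did not overlap, with a log2 fold change of 0.47 that did not pass (limma adjusted p = 0.161). Pdgfra, the PDGF receptor of fibroblasts and glial precursors, was at 159, 131 and 126 TPM in treated libraries, against 87.2, 123 and 69.4 TPM in homozygous libraries (limma adjusted p = 0.218). Pdgfb, the endothelial ligand of Pdgfrb, was chosen after its values were seen. It was at 18.3, 21.2 and 18.8 TPM in treated libraries, against 5.79, 7.44 and 7.91 TPM in homozygous libraries, and its log2 fold change was 1.34 (limma adjusted p = 0.0599). Angpt1 and Angpt2, ligands of the endothelial receptor Tek, were chosen in the same way. Angpt1 was at 1.37, 1.60 and 1.22 TPM in treated libraries, against 6.84, 3.803 and 4.76 TPM in homozygous libraries (limma adjusted p = 0.0989). Angpt2 was at 4.99, 4.82 and 4.67 TPM in treated libraries, against 10.9, 9.99 and 11.5 TPM in homozygous libraries (limma adjusted p = 0.109). Tek itself overlapped between groups, at 28.8, 27.4 and 19.2 TPM in treated libraries, against 21.9, 24.5 and 25.2 TPM in homozygous libraries.

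Icam1, the adhesion molecule to which leukocytes bind on activated endothelium, was the 1 of 4 tested endothelial activation genes that rose. Icam1 was at 29.3, 26.9 and 34.1 TPM in treated libraries, against 5.55, 4.94 and 2.90 TPM in homozygous libraries, and its log2 fold change was 2.58 (limma adjusted p = 0.0217). It lost its call without homozygous replicate 1, 2 or 3 (limma adjusted p = 0.109, 0.0609 and 0.101). With treated library 3 alone the log2 fold change was 2.72, against 2.58, and the call was lost (limma adjusted p = 0.0601). Leukocytes express Icam1 as well. The endothelial selectin gene Sele was at 0.156 TPM or less in all 6 libraries, and Selp was listed at 0 in treated libraries 1 and 2. Vcam1 was at 80.2, 87.5 and 63.6 TPM in treated libraries, against 45.2, 48.2 and 53.0 TPM in homozygous libraries (limma adjusted p = 0.141), named after its values were seen. Of the 4 tested genes 2 were above 0 and 2 below, with a median of 0.15. The 2 below, Ackr1 and Lrg1, had log2 fold changes of -0.61 and -0.27 and overlapped between groups.

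**Figure D4:**
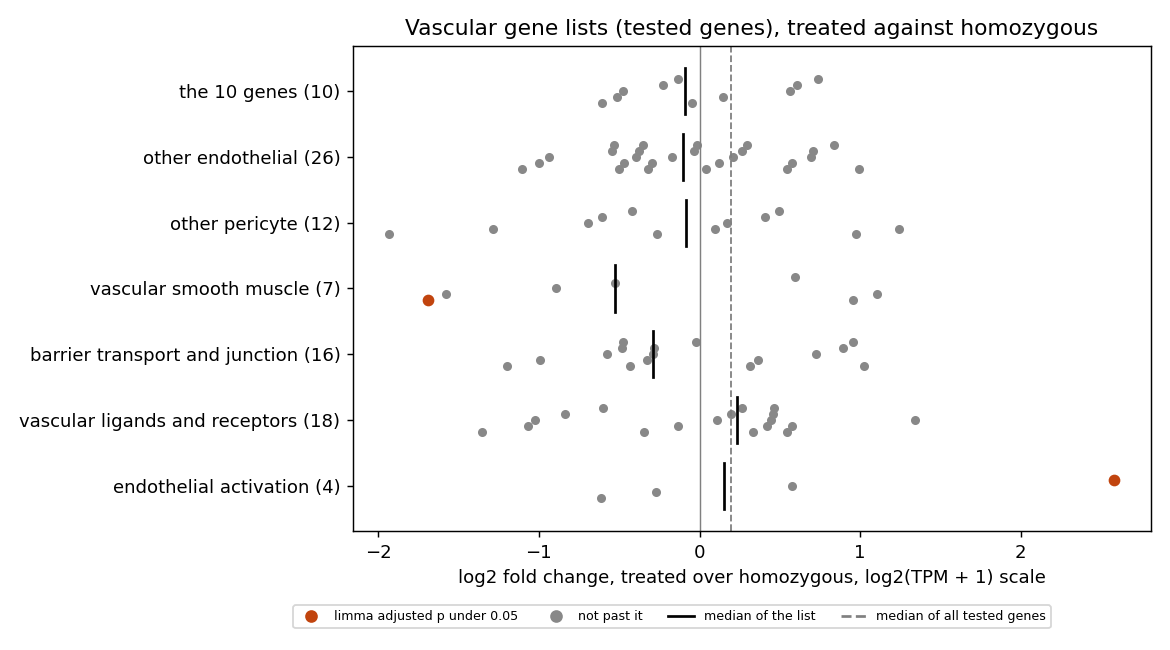
Log2 fold change on the log2(TPM + 1) scale, treated over homozygous, of every tested gene of the 10-gene set and of 6 further vascular lists (number tested in brackets, vertical position within a list has no meaning). Black bars are list medians, the dashed line is the median of all tested genes, 0.20, and the 2 larger red points are Acta2 at -1.69 and Icam1 at 2.58, which passed the test.

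Markers of other cell types moved between the same libraries. Macrophage genes, 7 of 8 tested, summed to 170 to 192 TPM in treated and 57.5 to 83.9 TPM in homozygous libraries. Csf1r, the macrophage growth factor receptor gene, rose to 132, 127 and 116 TPM in treated libraries, against 17.1, 38.6 and 22.0 TPM in homozygous libraries (limma adjusted p = 0.025) and made up most of the treated sum. Of the 7 tested genes 4 were above 0 and 3 below. Cd163 and Lyve1, genes of perivascular macrophages, had log2 fold changes of -0.333 and -0.999, lower in every treated library, and did not pass. Lyve1 was low throughout, at 4.95, 1.10 and 1.43 TPM in homozygous libraries. Mrc1, of the same list and named after its values were seen, was higher in every treated library. It was at 17.7, 16.8 and 22.5 TPM, against 14.6, 14.8 and 11.1 TPM in homozygous libraries (limma adjusted p = 0.301). In the list 4 genes were higher and 2 lower without overlap between groups, where all tested genes had 29.2% higher and 15.8% lower. Without homozygous replicate 1 or 3 the limma adjusted p of Csf1r was 0.109 and 0.123. With treated library 3 alone the log2 fold change of Csf1r was 2.20, against 2.28, and its call was lost (limma adjusted p = 0.0816). Platelet genes, 4 of 6 tested, summed to 54.0 to 58.5 TPM in treated and 14.5 to 29.7 TPM in homozygous libraries. Itga2b, an integrin gene of platelets, rose to 44.3, 44.4 and 42.5 TPM in treated libraries, against 16.8, 12.6 and 11.4 TPM in homozygous libraries (limma adjusted p = 0.0314). It lost its call without homozygous replicate 1, 2 or 3 (limma adjusted p = 0.127, 0.0776 and 0.143). With treated library 3 alone its log2 fold change was 1.59, against 1.62, and the call was lost (limma adjusted p = 0.0769). Itga2b made up most of the treated sum, and Pf4, Ppbp and Treml1 overlapped between groups. The platelet marker Pf4 was listed at 0 in treated libraries 1 and 2. In treated library 3 Pf4 was at 11.7 TPM, the highest of the 6 libraries. Gp9 was listed at 0 in all 3 treated libraries. Gp1bb was at 2.48 and 3.20 TPM in treated libraries 1 and 2 and listed at 0 in the other libraries. The part of macrophages and platelets in the level of Pecam1 was not tested.

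Beside Cspg4 and Pdgfrb stand the glial and connective tissue lists. Oligodendrocyte genes, 5 of 6 tested, summed to 35.2 to 87.8 TPM in treated and 153 to 635 TPM in homozygous libraries. Mog, a myelin gene of oligodendrocytes, fell to 3.29 and 3.25 TPM in treated libraries 1 and 2 and was listed at 0 in treated library 3, against 34.0, 14.7 and 34.0 TPM in homozygous libraries (limma adjusted p = 0.0415). It lost its call without homozygous replicate 1, 2 or 3 (limma adjusted p = 0.189, 0.0732 and 0.176). The myelin genes Mobp, Mag and Mog made up most of the list's sum. Olig1, a transcription factor gene of the lineage that precursors also express, was at 6.98, 6.71 and 0 TPM in treated libraries, against 4.79, 1.34 and 2.17 TPM in homozygous libraries. Olig2, likewise, was at 5.25, 6.26 and 0 TPM in treated libraries, against 1.45, 1.26 and 4.94 TPM in homozygous libraries. Both were thus highest in treated libraries 1 and 2 and at 0 in treated library 3, and were named after their values were seen. Cartilage genes, 5 of 6 tested, summed to 234 to 326 TPM in treated and 398 to 497 TPM in homozygous libraries, most of it Col2a1. The part of these cells in the level of Cspg4 was not tested. Fibroblast genes, 6 of 6 tested with Dcn and Col1a2 the most abundant, summed to 506 to 570 TPM in treated and 744 to 1085 TPM in homozygous libraries, while Pdgfrb overlapped between groups. Astrocyte genes, 6 of 6 tested and led by Slc1a2, summed to 1700 and 1695 TPM in treated libraries 1 and 2 and 361 TPM in treated library 3, against 389 to 571 TPM in homozygous libraries. Slc1a2 made up most of the sum in treated libraries 1 and 2, and the list had 3 genes above 0 and 3 below. Gfap and Aqp4, with log2 fold changes of -1.65 and -1.03, overlapped between groups. Forebrain neuron genes, 4 of 7 tested, summed to 833, 810 and 53.3 TPM in treated libraries, mostly Camk2a in treated libraries 1 and 2, against 72.8 to 99.1 TPM in homozygous libraries. Vessels of brain tissue would carry the same endothelial genes, and the part of such tissue in treated libraries 1 and 2 was not tested.

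The genes with values most like the endothelial and mural averages were found by the root mean square difference of centred log2(TPM + 1) values over the 6 libraries of the second table. Closest to the 6 endothelial genes were Pet100 at 0.0320, Tti2 at 0.0359, Prnp at 0.0367, Wnk2 at 0.0390 and Actr1b at 0.0399. Closest to the 4 mural genes were Arhgap31 at 0.0303, Ccdc117 at 0.0339, Pigv at 0.0396, Nostrin at 0.0452 and Pias2 at 0.0497. None of these 10 was in a vascular list used here.

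The second question was how the homozygous cochlea differed from WT. Only Cspg4 of the 10 genes was in the first table, which listed 1410 symbols, and WT levels of the other 9 are not analysed here. Cspg4 was at 7.56, 6.73 and 4.78 TPM in homozygous libraries, against 8.11, 9.65 and 9.24 TPM in WT libraries. Every homozygous library was lower than every WT library on the deposited scale. Means were 6.36 ± 1.43 TPM in homozygous libraries and 9.001 ± 0.803 TPM in WT libraries (SD, n = 3 each). The log2 fold change was -0.46 with an interval of -0.96 to 0.04, and the test was not passed (limma adjusted p = 0.0781). The median-of-ratios factors were 0.942 for homozygous library 1 and 1.06 for WT library 1. After division by them homozygous library 1 lay above WT library 1, so the groups overlapped. Of the 1348 genes tested there, 51.3% passed, 17.9% higher and 33.5% lower, and median-of-ratios scaling turned that split to 472 higher and 212 lower, against 241 and 451. An unadjusted p under 0.05 was reached by 75.7%, and 77.1% had no overlap between groups, 31.5% higher and 45.6% lower. The sources used here do not say how the rows of this table were picked. If they were picked on these samples, its adjusted p-values are too small and its calls are not independent evidence. The tables were normalized separately: the same homozygous libraries 1, 2 and 3 had 7.56, 6.73 and 4.78 TPM of Cspg4 in the first table and 7.37, 8.47 and 6.44 TPM in the second, so treated and WT levels were not compared. Both comparisons share the homozygous libraries.

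**Figure D5:**
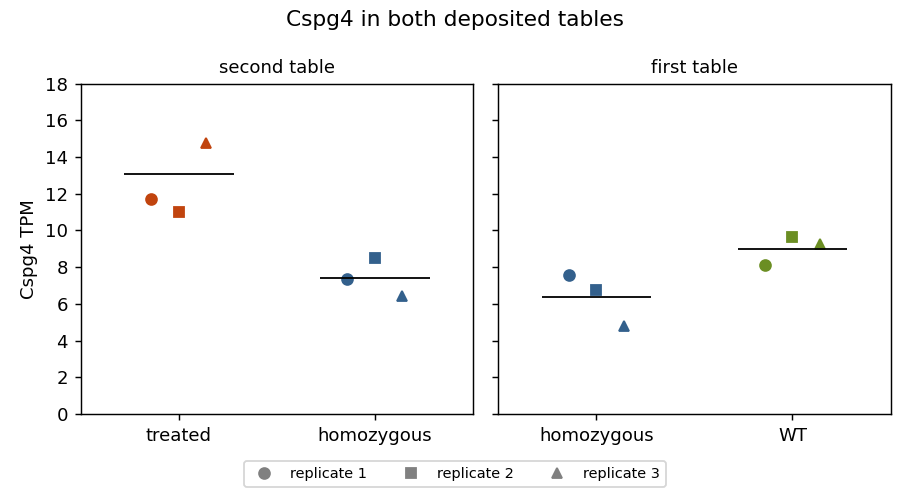
Cspg4 TPM (vertical axis from 0) in the second table (treated and homozygous) and the first table (homozygous and WT), one point per library with its replicate number as shape and the group mean as a bar (treated libraries 1 and 2 averaged first). On the deposited scale homozygous libraries lie below treated libraries in the second table and below WT libraries in the first. Under median-of-ratios scaling the groups of the first table overlap.

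Of the 6 further vascular lists, 10 genes were tested in the first table, and 3 fell and 0 rose there, with 5 above 0 and 5 below. That share is near the 33.5% of all genes of that table that fell. Gja4, which encodes connexin 37 of arterial endothelium and mural cells, was at 1.44, 1.82 and 1.80 TPM in homozygous libraries, against 5.05, 3.33 and 3.48 TPM in WT libraries (log2 fold change -0.87, limma adjusted p = 0.0311). Aplnr, the receptor for apelin on endothelium, was at 1.24, 1.57 and 1.37 TPM in homozygous libraries, against 3.41, 4.33 and 2.40 TPM in WT libraries (log2 fold change -0.85, limma adjusted p = 0.0351). Slco1c1, a thyroid hormone transporter of brain capillaries and glia, had means of 116 ± 8.07 TPM in homozygous libraries and 145 ± 7.02 TPM in WT libraries (SD, n = 3 each). Its log2 fold change was -0.32 (limma adjusted p = 0.0495). Each of these calls was lost when some single libraries were left out. Gja4 and Aplnr lost theirs without homozygous replicate 1 (limma adjusted p = 0.069 and 0.0742) and without WT replicate 1, 2 or 3 (limma adjusted p = 0.0767, 0.0578 and 0.0644 for Gja4 and 0.0785, 0.0846 and 0.0544 for Aplnr). Slco1c1 lost its call without homozygous replicate 1 or 3 (limma adjusted p = 0.102 and 0.0869), without WT replicate 1, 2 or 3 (limma adjusted p = 0.102, 0.119 and 0.0965) and under median-of-ratios scaling (limma adjusted p = 0.164). Of the 4 genes of barrier transport and junctions tested there, 3 were above 0 and only Slco1c1 was below. The 3 above, Abcb1a, Ocln and Slc2a1, named after their values were seen, were higher in homozygous libraries without overlap between groups. Their log2 fold changes were 0.36, 0.37 and 0.42, and none passed (limma adjusted p = 0.0614, 0.0562 and 0.0614).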

How the data were processed

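RNA of the cochlear membranous labyrinth was sequenced as stranded total RNA, per the labels' protocols. The deposited values were TPM; kallisto 0.51.0, DESeq without a version and GRCm39 are named in the submitters' processing notes. The first table held 1411 rows (WT and homozygous libraries) and the second 25606 (homozygous and treated libraries). Repeated symbols were summed. Genes at 1 TPM or more in at least 3 libraries were tested with limma 3.58.1 in R 4.3.3 on log2(TPM + 1), with a mean per group, a mean-variance trend, two-sided tests and Benjamini-Hochberg adjustment over all tested genes of the table at 0.05. This scale understates changes of low genes. Tests stayed within a table. Treated libraries 1 and 2 were averaged, a decision taken after their values were known. Samples are given as biological replicates; whether each is 1 animal or a pool was not given in the sources used here.

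The 10 genes and all lists were chosen with earlier results of these data known. Named genes were the 10 genes and the 5 closest in pattern to each cell class. From each list came up to 2 higher and 2 lower passing genes with the smallest p, or otherwise the 2 with the highest mean. Slc17a6, Slc1a3, Col9a1 and Gjb2 met this rule and are not described. Genes outside the rule are named too, and only some of them are marked in the text as chosen after their values were seen. Replicate numbers did not pair the samples: deviations of same-numbered libraries correlated from -0.15 to 0.05. The alternatives were a pseudocount of 0.1, no filter, median-of-ratios scaling, TPM rescaled without mitochondrial genes, treated libraries as 3 samples, a replicate block, leaving out each library, and, added after seeing the data, treated library 3 alone. The script was tested on simulated data.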

Additional observations from a re-analysis of the deposited data

How the results depend on the processing

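None of the 10 genes passed under any alternative except 1. With every treated library as its own sample, 2 passed, Emcn (log2 fold change 0.62, limma adjusted p = 0.0441) and Rgs5 (-0.53, limma adjusted p = 0.0395), where near-identical libraries count as separate. That setting gave 3563 passing genes among all genes, against 754 as reported; the count was 134 with no filter and 222 with treated library 3 alone. Leaving out 1 library gave 63 to 2984, the lowest without homozygous replicate 1 and the highest without treated replicate 3, which leaves 1 treated sample assumed to vary like the homozygous samples. Median-of-ratios scaling moved the split of passing genes to 404 higher and 243 lower, against 589 and 165, and the median of all genes to 0.02, against 0.20; in the first table the split became 472 higher and 212 lower, against 241 and 451. A replicate block lowered the counts, to 1485 in the second table, against 3563 for the same 6 libraries without the block, and to 343 in the first, against 692. With the block 0 of the 10 genes passed; the numbers only name the samples. In the first table leaving out 1 library gave 103 (without WT replicate 3) to 611 (without homozygous replicate 3), and Cspg4 kept its direction and did not pass in any of 10 alternatives, at -0.58 to -0.29.

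Signs turned for values near 0. Cdh5 was at -0.045 under median-of-ratios scaling and -0.11 with treated library 3 alone, and at -0.046 to 0.41 when 1 library was left out, the lowest without homozygous replicate 3. Flt1 was at 0.029 with treated libraries as 3 samples, with or without the replicate block, and at -0.068 to 0.19 when 1 library was left out. Pdgfrb was at -0.22 to 0.17 there, with both highest values without treated replicate 3. Mcam was at -0.10 under median-of-ratios scaling, -0.034 without mitochondrial genes and -0.10 with treated library 3 alone, and Adgrf5 at -0.013 with treated library 3 alone. Without the filter on low values Acta2, Icam1, Csf1r, Itga2b and Mog also lost their calls, as did Mog with a pseudocount of 0.1 and Gja4, Aplnr and Slco1c1 with the replicate block. Slc16a1, Tfrc and Myh11, each lower, passed with median-of-ratios scaling, without mitochondrial genes, with treated libraries as 3 samples with and without the block, and without treated replicate 3. With treated libraries as 3 samples Vegfa, Pdgfb, Angpt1, Angpt2, Abcb1a, Higd1b and Heyl also passed, Pdgfb with the block too and Higd1b without treated replicate 3. The cause was not tested. Emcn, Cldn5, Cspg4, Kdr, Rgs5, Pecam1 and Kcnj8 kept their sign in all 13 alternatives. Depth is unknown, and 2 treated samples limit the precision.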
